A study of Mus musculus with 6 samples.

Results

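The genes described are 10 members of the activin and BMP pathways, taken by name: the ligand genes Inhba, Inhbb and Bmp4, the secreted antagonists Fst, Fstl3 and Grem1, and the receptor genes Acvr1, Acvr2a, Bmpr1a and Bmpr2. They are 10 of 54752 genes whose reads were counted in NIH/3T3 cells, an immortalized line of mouse embryonic fibroblasts. RNA-seq libraries were made from 3 groups of 2 samples after 72 h of treatment: vehicle (PBS), 1 ng/ml TGF-β1 with DMSO (TGF-β1+DMSO), and 1 ng/ml TGF-β1 with 5 μM BI6727 (TGF-β1+BI6727), an inhibitor of the mitotic kinase PLK1. TGF-β1+DMSO was compared with vehicle for the response to the cytokine, and TGF-β1+BI6727 with TGF-β1+DMSO for the effect of the inhibitor on it. The vehicle cells had PBS and not DMSO, which was given in place of BI6727. The effects of TGF-β1 and of DMSO thus cannot be told apart in the first comparison. TGF-β1+BI6727 was also compared with vehicle, where the effects of TGF-β1, BI6727 and any solvent cannot be told apart either. All 6 libraries came from a single cell line, and the labels do not say whether the 2 samples of a group were separate cultures, so p-values measure the spread between these samples, which may be technical.

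Activins are dimers of inhibin beta subunits. They bind a type II receptor such as ACVR2A, which recruits a type I receptor and leads to phosphorylation of SMAD2 and SMAD3, the same SMADs that TGF-β uses. BMPs bind BMPR2 or the activin type II receptors together with type I receptors such as BMPR1A and ACVR1, and signal through SMAD1, SMAD5 and SMAD9. Follistatin, the product of Fst, and the related FSTL3 trap activins, whereas gremlin traps BMPs. In fibroblasts, activin A is known as a product and an amplifier of the TGF-β response.

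Of the 10 genes, 8 had a count in at least 1 library and 7 passed the filter on low counts (edgeR's filterByExpr, 14604 genes) and were tested; Inhbb and Bmp4 had no count in any library, and Grem1 had too few. A gene was called when edgeR's quasi-likelihood test gave it a Benjamini-Hochberg adjusted p below 0.01 and its fold change above 2. TGF-β1+DMSO against vehicle called 2 of the 7, Inhba and Fstl3, both higher, where 5.98% of all tested genes were called, 2.75% higher and 3.23% lower. An unadjusted p below 0.05 was found for 5 of the 7, and for 35.2% of all tested genes. The groups did not overlap for 5 of the 7 in that comparison, where 60.5% of all tested genes did not overlap. TGF-β1+BI6727 against TGF-β1+DMSO called none of the 7, and none had an unadjusted p below 0.05. DESeq2 called none of them either. The background in this comparison was 0% by edgeR (0 of 14604 genes, with 1041 at an unadjusted p below 0.05), and DESeq2 called 15 genes. TGF-β1+BI6727 against vehicle called the same 2 genes, against 6.22% of all tested genes (2.51% higher and 3.71% lower), and 5 of the 7 had an unadjusted p below 0.05, against 35.4% of all tested genes. The groups did not overlap for 6 of the 7, against 71.6% of all tested genes. The 3 comparisons share libraries and are not independent of each other. The median log2 fold change of the 7 was 0.047, 0.0098 and 0.12 in these comparisons in turn, and that of all tested genes was -0.011, -0.0012 and 0.0049.

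**Figure D1:**
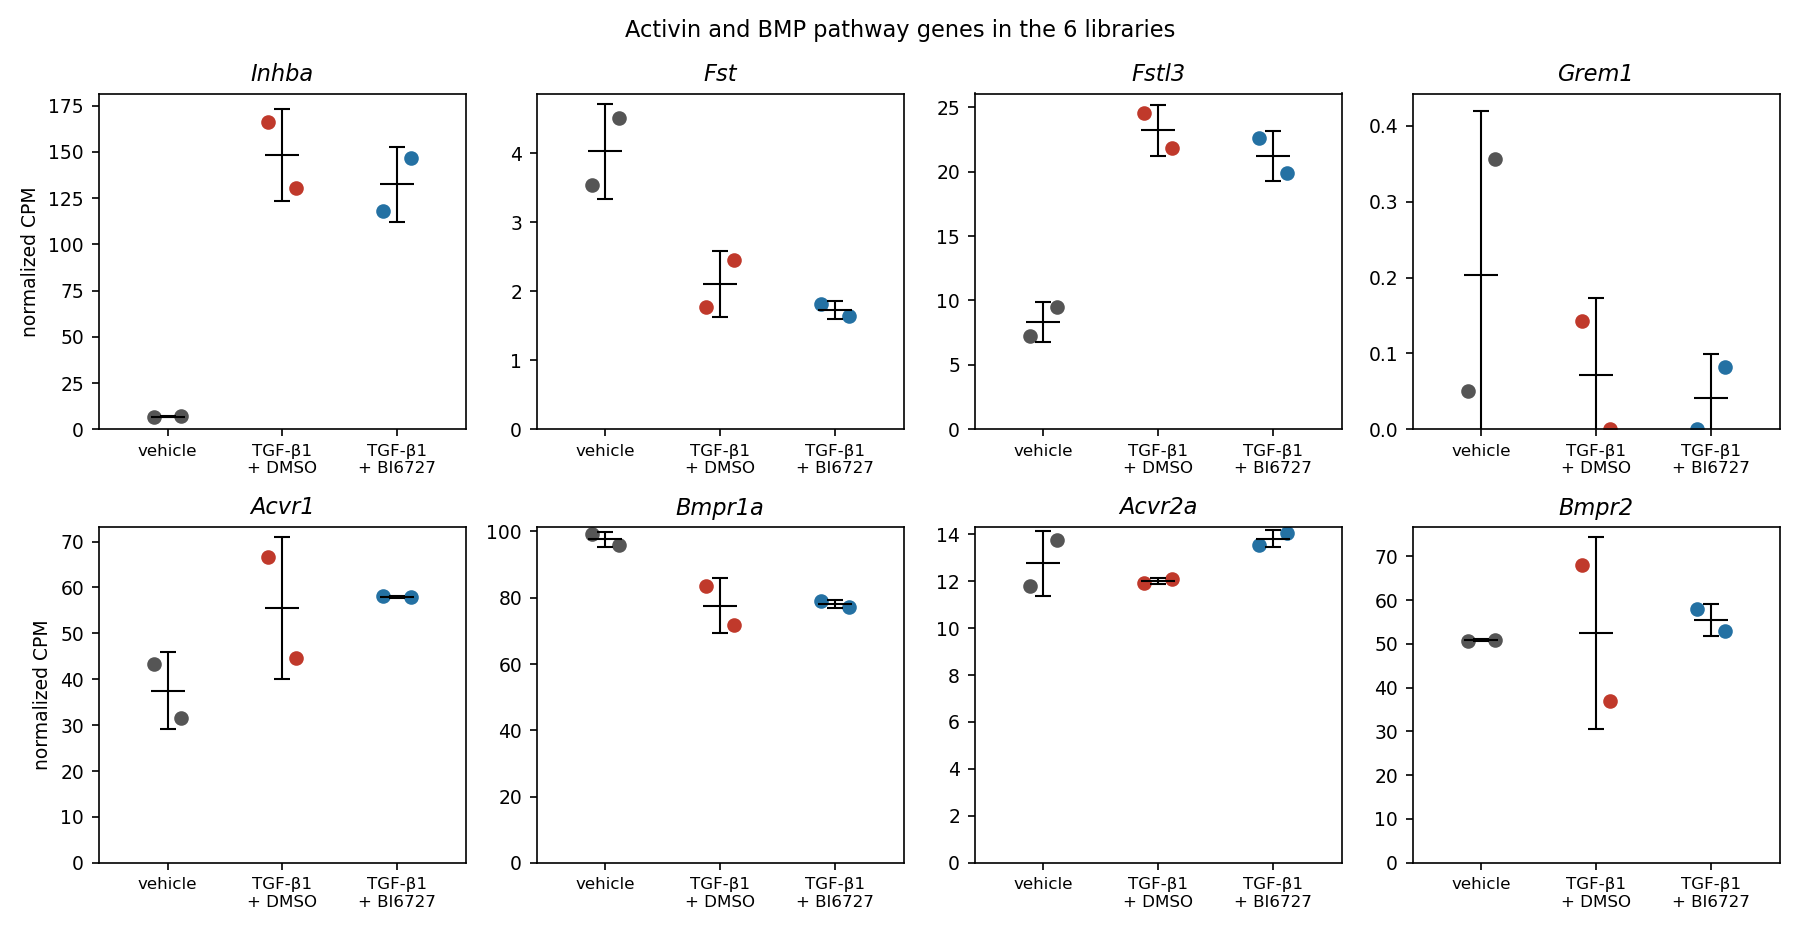
Normalized CPM (counts relative to the TMM-scaled library total) of the 8 genes with any count, with 1 panel per gene and an axis from 0. Points are the 2 libraries of each group, the long line is their mean and the bar 1 SD; Inhba stood at 6.52 and 7.14 in vehicle and between 118 and 166 in the 4 TGF-β1 libraries.

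The libraries held 18362378 to 24452153 counts on genes. Acta2 and Ccn2, which TGF-β1 is known to induce, had log2 fold changes of 2.31 and 3.66 in TGF-β1+DMSO against vehicle. Of the 6 genes of the TGF-β1 response list, 4 were called higher. In TGF-β1+BI6727 against TGF-β1+DMSO, Acta2 and Ccn2 had log2 fold changes of -0.49 and -0.69 (edgeR adjusted p = 0.463 and 0.146). There, 5 of the 6 listed genes had a negative log2 fold change and 1 a positive one, and none was called. All 10 fibroblast markers were tested, and their summed level ranged over 8426-8681 normalized CPM in vehicle, 7937-10667 in TGF-β1+DMSO and 8488-8509 in TGF-β1+BI6727. Vim made up much of this sum (4004, 4900 and 4429 on average), and the fold changes of the 10 against vehicle in TGF-β1+DMSO were positive for 5 and negative for 5. Pdgfra was called lower, from 268 to 74.0 normalized CPM (3.62-fold, edgeR adjusted p = 0.000936). The summed level of 5 epithelial markers was 0.354-0.491, 1.88-2.24 and 0.818-1.65, that of 5 immune markers 3.64-4.60, 2.87-2.91 and 3.03-3.15, and that of 5 endothelial markers 0.303-0.892, 2.82-3.72 and 1.98-2.62 in these groups in turn. Of these, 1, 3 and 2 markers had no count in any library. The epithelial keratin Krt14 was called higher in TGF-β1+DMSO against vehicle, from 0.165 to 1.75 normalized CPM (10.2-fold, edgeR adjusted p = 0.00457). It had only 3 and 4 counts in vehicle, against 36 and 38 in TGF-β1+DMSO, so the size of this fold is uncertain. The part of these shifts in the results was not tested. The 2 TGF-β1+DMSO libraries stood further apart than the replicates of the other groups. The SD of their log2 difference over genes was 0.563, against 0.447 for vehicle and 0.449 for TGF-β1+BI6727, and their difference rose by 0.16 log2 units per doubling of gene length, against -0.016 and -0.022. Where leaving out 1 of these libraries moves a member's value by much, both values are given below. A fit that leaves out a library has 1 sample in that group, which is assumed to vary like the other groups, and the estimated spread changes with the library left out, so a p from such a fit is no measure of the stability of a value.

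Inhba (chromosome 13, 16011851 to 16031621 on the plus strand of mm10) encodes the beta A subunit, of which activin A is the homodimer. It had 6.52 and 7.14 normalized CPM in the 2 vehicle libraries, 166 and 131 in TGF-β1+DMSO, and 118 and 147 in TGF-β1+BI6727. All 4 TGF-β1 libraries lay far above both vehicle libraries, while the 2 TGF-β1 groups overlapped. The mean was 6.83 ± 0.437 in vehicle and 148 ± 24.9 in TGF-β1+DMSO (SD, n = 2), a 21.7-fold difference. The log2 fold change was 4.44 (SE 0.18, 95% interval 4.02 to 4.86, edgeR's quasi-likelihood test, adjusted p = 5.26e-06 after Benjamini and Hochberg), higher than that of 99.5% of the tested genes. In bulk RNA such a change can be in RNA per cell or in the share of cells that express the gene, and these cannot be told apart. With each of the 6 libraries left out in turn, the log2 fold change stayed between 4.25 and 4.61 and the gene stayed called.

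With BI6727 added, Inhba averaged 132 ± 20.3 normalized CPM (SD, n = 2). Against TGF-β1+DMSO the log2 fold change was -0.16 (95% interval -0.51 to 0.18, adjusted p = 0.853 by edgeR's quasi-likelihood test), so that a fall of more than 0.51 log2 units lay outside the interval. Against vehicle, Inhba remained 19.4-fold higher (log2 fold change 4.28, edgeR adjusted p = 5.32e-06).

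The stretch of 250 bases before the RefSeq start is shown for Inhba and Fstl3, the 2 members that rose, because they differ in base composition and in the short motifs searched. Both are from GRCm38.p6 on the plus strand, at chr13:16011601-16011850 for Inhba and chr10:79777024-79777273 for Fstl3, and the capitals mark matches.
Inhba: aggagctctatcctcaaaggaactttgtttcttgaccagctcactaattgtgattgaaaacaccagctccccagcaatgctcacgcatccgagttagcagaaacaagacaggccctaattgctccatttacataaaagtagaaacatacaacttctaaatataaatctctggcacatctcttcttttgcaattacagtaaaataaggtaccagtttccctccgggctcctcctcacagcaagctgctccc
Fstl3: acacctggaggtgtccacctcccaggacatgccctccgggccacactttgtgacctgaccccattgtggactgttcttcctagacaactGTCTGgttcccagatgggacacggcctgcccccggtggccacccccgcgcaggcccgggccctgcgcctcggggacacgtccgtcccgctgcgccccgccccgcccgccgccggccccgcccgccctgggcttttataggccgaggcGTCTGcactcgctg
The motifs searched on both strands were CAGAC (the SMAD box, GTCTG on the other strand), GGCGCC (a GC-rich SMAD motif) and TGANTCA (the AP-1 motif). No match overlapped a match to another motif in the windows of these genes. The Inhba window was 43.2% G and C and held no match. The Fstl3 window was 71.2% G and C and held 2 matches to GTCTG, 161 to 157 and 14 to 10 bases before the start. Over all 32851 windows of this length the median was 52.4% G and C, and 42.2% held the SMAD box, 9.59% the GC-rich motif and 6.75% the AP-1 motif. Windows were found for 9 of the 10 genes, with none for Fst. Acvr2a and Grem1 each held 1 SMAD box match. Grem1, Bmpr1a and Bmpr2 each held 1 GC-rich match, and Inhbb, Bmp4 and Acvr1 held none of the 3 motifs. The windows of Acvr1, Bmpr1a and Bmpr2 lie before the RefSeq start but within the gene bounds used for counting, which are given below.

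The other 2 ligand genes were not detected. Inhbb (chromosome 1, 119415465 to 119422248, minus strand), which encodes the beta B subunit of activin B, and Bmp4 (chromosome 14, 46383520 to 46390669, minus strand) had 0 counts in all 6 libraries. A floor of 3 counts in a library corresponds to 0.123-0.165 normalized CPM, or 0.0288-0.0388 RPKM (normalized CPM per kilobase of gene model) for Inhbb and 0.0546-0.0735 RPKM for Bmp4, and covers counting error only. Inhba was thus the 1 ligand gene of the members with reads.

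Fst (chromosome 13, 114452290 to 114458951, minus strand), the activin antagonist follistatin, was expressed at a low level in all groups. It had 3.54 and 4.51 normalized CPM in vehicle, 1.77 and 2.45 in TGF-β1+DMSO, and 1.82 and 1.64 in TGF-β1+BI6727, from 33 to 101 counts per library. Both vehicle libraries lay above all 4 TGF-β1 libraries. The log2 fold change of TGF-β1+DMSO against vehicle was -0.93 (SE 0.30, 95% interval -1.63 to -0.24), and its adjusted p of 0.0619 by edgeR's quasi-likelihood test did not pass the threshold. For TGF-β1+BI6727 against vehicle it was -1.22 (95% interval -1.93 to -0.52, adjusted p = 0.0242), which did not pass either, although Fst was called with no filter on low counts, with only the 2 groups in the fit, or without either TGF-β1+DMSO library, with edgeR adjusted p from 0.00178 to 0.00431. Between TGF-β1+BI6727 and TGF-β1+DMSO the log2 fold change of Fst was -0.29 (95% interval -1.03 to 0.45, edgeR adjusted p = 0.879).

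Fstl3 (chromosome 10, 79777272 to 79782630, plus strand), whose product also binds activins, was higher with TGF-β1. It had 7.23 and 9.46 normalized CPM in vehicle, 24.6 and 21.8 in TGF-β1+DMSO, and 22.6 and 19.9 in TGF-β1+BI6727. The 4 TGF-β1 libraries all lay above vehicle and overlapped with each other. TGF-β1+DMSO was 2.77-fold above vehicle (log2 fold change 1.47, SE 0.18, 95% interval 1.06 to 1.88, adjusted p = 0.000821 by edgeR's quasi-likelihood test), and TGF-β1+BI6727 was 2.53-fold above it (log2 fold change 1.34, edgeR adjusted p = 0.00128). The inhibitor gave a log2 fold change of -0.13 (95% interval -0.52 to 0.26, edgeR adjusted p = 0.896). Without vehicle replicate 1 the first of these was 1.29 and lost its call (edgeR adjusted p = 0.0201). The second lost its call without vehicle replicate 1 (log2 fold change 1.17, edgeR adjusted p = 0.0267), without TGF-β1+BI6727 replicate 1 (1.25, 0.0192) or without its replicate 2 (1.43, 0.0121). Of the exonic bases of Fstl3, 47.3% overlap Prss57, which had 0 to 4 counts per library, and how reads in the shared bases were assigned is not given in the sources used here, so the level of Fstl3 is uncertain.

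Grem1 (chromosome 2, 113746164 to 113758646, minus strand), the BMP antagonist gremlin, had 1 and 8 counts in vehicle, 3 and 0 in TGF-β1+DMSO, and 0 and 2 in TGF-β1+BI6727. These 14 counts over 6 libraries allowed no test, and no fold is given since most libraries were at or under the floor of 3 counts.

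The balance between the activin subunit and its antagonists was described by ratios of RPKM within a library. RPKM divides by gene length, but does not remove the length trend between the TGF-β1+DMSO libraries. Inhba over Fst was 1.32 and 1.14 in vehicle, 67.5 and 38.4 in TGF-β1+DMSO, and 46.7 and 64.5 in TGF-β1+BI6727. Inhba over Fstl3 was 0.345 and 0.289, then 2.58 and 2.29, then 2.00 and 2.83. By RPKM, Inhba RNA was thus below Fstl3 RNA in both vehicle libraries and above it in all 4 TGF-β1 libraries. The size of the ratios to Fstl3 is uncertain, because 47.3% of its exonic bases overlap Prss57. Over the summed RPKM of both antagonists, Inhba was 0.274 and 0.230 in vehicle, 2.49 and 2.16 in TGF-β1+DMSO, and 1.92 and 2.71 in TGF-β1+BI6727. Of the antagonists, Fst over Fstl3 was 0.261 and 0.254 in vehicle, 0.0383 and 0.0597 in TGF-β1+DMSO, and 0.0429 and 0.0439 in TGF-β1+BI6727. Each of these ratios separated vehicle from both TGF-β1 groups and overlapped between the TGF-β1 groups. They follow from the values above and were not tested.

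**Figure D2:**
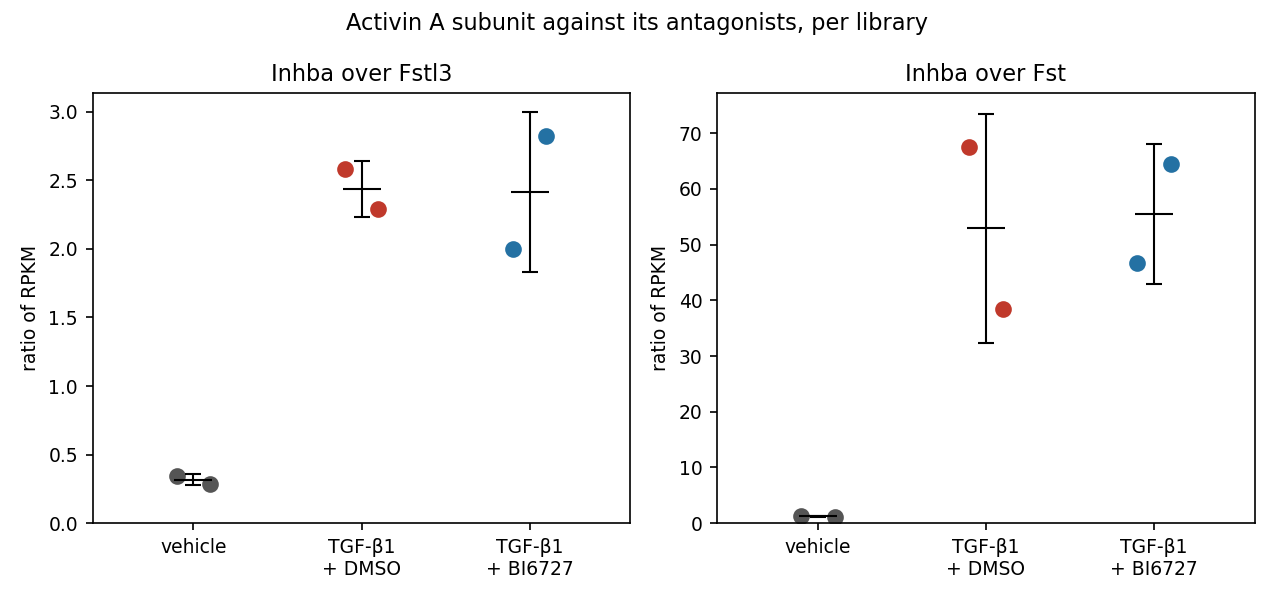
Ratio of Inhba RPKM to Fstl3 RPKM (left) and to Fst RPKM (right) in each of the 6 libraries, on linear axes from 0. Points are libraries, the long line is the group mean and the bar 1 SD; the vehicle libraries stood at 0.345 and 0.289 against Fstl3, and all TGF-β1 libraries at 2.00 or above.

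Among the receptors no change was called in any of the 3 comparisons. Bmpr1a (chromosome 14, 34410734 to 34503341, minus strand), a type I receptor for BMPs also known as ALK3, was the most abundant member in vehicle. It had 99.2 and 96.0 normalized CPM in vehicle, 83.4 and 71.8 in TGF-β1+DMSO, and 79.0 and 77.3 in TGF-β1+BI6727. Vehicle lay above all 4 TGF-β1 libraries. The log2 fold change of TGF-β1+DMSO against vehicle was -0.33 (SE 0.11, 95% interval -0.59 to -0.074, edgeR adjusted p = 0.0707), and that of TGF-β1+BI6727 against vehicle was -0.32 (edgeR adjusted p = 0.0757). The first was -0.44 without TGF-β1+DMSO replicate 1 and -0.21 without its replicate 2. Between the TGF-β1 groups it was 0.0098 (95% interval -0.25 to 0.27), with a sign that depended on the scaling.

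Acvr1 (chromosome 2, 58388644 to 58567157, minus strand), the type I receptor ALK2, had 43.4 and 31.6 normalized CPM in vehicle, 66.5 and 44.6 in TGF-β1+DMSO, and 58.2 and 57.8 in TGF-β1+BI6727. Both vehicle libraries lay below the TGF-β1 libraries, the closest being 43.4 and 44.6. The log2 fold change was 0.57 for TGF-β1+DMSO against vehicle (SE 0.21, 95% interval 0.090 to 1.05, edgeR adjusted p = 0.0890) and 0.63 for TGF-β1+BI6727 against vehicle (edgeR adjusted p = 0.0640). The first depended on the TGF-β1+DMSO library used, at 0.25 without replicate 1 and 0.84 without replicate 2. Neither value passed the fold threshold. Between the TGF-β1 groups the log2 fold change of Acvr1 was 0.062 (95% interval -0.41 to 0.53).

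Acvr2a (chromosome 2, 48814109 to 48903269, plus strand), a type II receptor that binds activins and several BMPs, varied little in its levels. It had 11.8 and 13.7 normalized CPM in vehicle, 11.9 and 12.1 in TGF-β1+DMSO, and 13.5 and 14.1 in TGF-β1+BI6727. It was the 1 member whose TGF-β1 groups did not overlap, against 35.1% of all tested genes in that comparison. The log2 fold change of TGF-β1+BI6727 against TGF-β1+DMSO was 0.20 (95% interval -0.16 to 0.56, edgeR adjusted p = 0.835), and that of TGF-β1+DMSO against vehicle was -0.088 (95% interval -0.45 to 0.27, edgeR adjusted p = 0.727). Of its exonic bases, 7.84% overlap Orc4, which had 1015 to 1623 counts per library, so part of its level is uncertain.

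Bmpr2 (chromosome 1, 59763400 to 59879014, plus strand), the type II receptor specific for BMPs, has the longest gene model of the members, at 17983 bases. It had 50.7 and 51.0 normalized CPM in vehicle, 68.1 and 37.0 in TGF-β1+DMSO, and 58.0 and 52.9 in TGF-β1+BI6727. The 2 TGF-β1+DMSO libraries lay on either side of all the others, so that no direction could be given. The log2 fold change against vehicle was 0.047 (95% interval -0.50 to 0.59, edgeR adjusted p = 0.908) with both libraries, -0.46 without TGF-β1+DMSO replicate 1, and 0.43 without its replicate 2. TGF-β1+BI6727 against TGF-β1+DMSO gave 0.077 with both, 0.58 without replicate 1 and -0.31 without replicate 2. With the length trend of each library removed, these 2 comparisons gave 0.28 and -0.051.

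**Figure D3:**
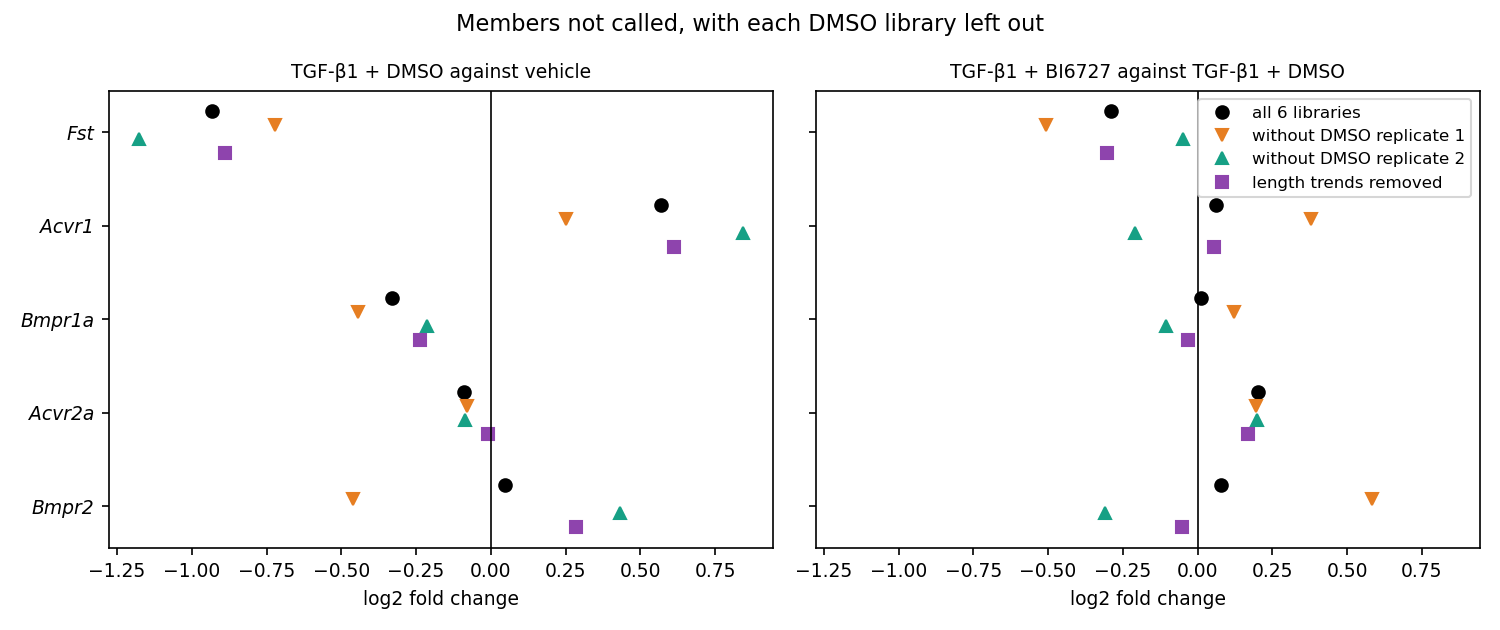
Log2 fold change of the 5 tested members that were not called, for TGF-β1+DMSO against vehicle (left) and TGF-β1+BI6727 against TGF-β1+DMSO (right). Circles are fits of all 6 libraries, triangles fits without 1 TGF-β1+DMSO library and squares fits with each library's length trend removed; Bmpr2 spanned -0.46 to 0.43 on the left, whereas Acvr2a hardly moved.

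On the RPKM scale, which allows levels of different genes to be compared, the order in vehicle was Bmpr1a at 15.4, Acvr1 at 7.77, Fstl3 at 3.41, Bmpr2 at 2.83, Acvr2a at 2.24, Inhba at 1.07 and Fst at 0.876, with no overlap between neighbours. In TGF-β1+DMSO, Inhba stood first at 23.2 RPKM, followed by Bmpr1a at 12.2, Acvr1 at 11.5, Fstl3 at 9.49, Bmpr2 at 2.92, Acvr2a at 2.11 and Fst at 0.459. The libraries of Bmpr1a and Acvr1, of Acvr1 and Fstl3, and of Bmpr2 and Acvr2a overlapped there, so these neighbours were not separated. TGF-β1+BI6727 kept this order, at 20.7 for Inhba, 12.3 for Bmpr1a with Acvr1 just below it, 8.68 for Fstl3, 3.08 for Bmpr2, 2.43 for Acvr2a and 0.376 for Fst. Inhba moved from the sixth to the first place with TGF-β1. The place of Fstl3 in these orders is uncertain because of its overlap with Prss57. Of the summed RPKM of the 4 receptors, Acvr1 made up 30.5% and 24.3% in vehicle, 42.0% and 37.4% in TGF-β1+DMSO, and 40.0% and 40.5% in TGF-β1+BI6727. Bmpr1a made up 52.9% and 56.2% in vehicle, 40.1% and 45.7% in TGF-β1+DMSO, and 41.3% and 41.2% in TGF-β1+BI6727. By these shares, the 2 type I receptors among the members were closer to equal in the TGF-β1 libraries. The shares were not tested and were not corrected for the length trend between the TGF-β1+DMSO libraries, and neither gene was called.

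**Figure D4:**
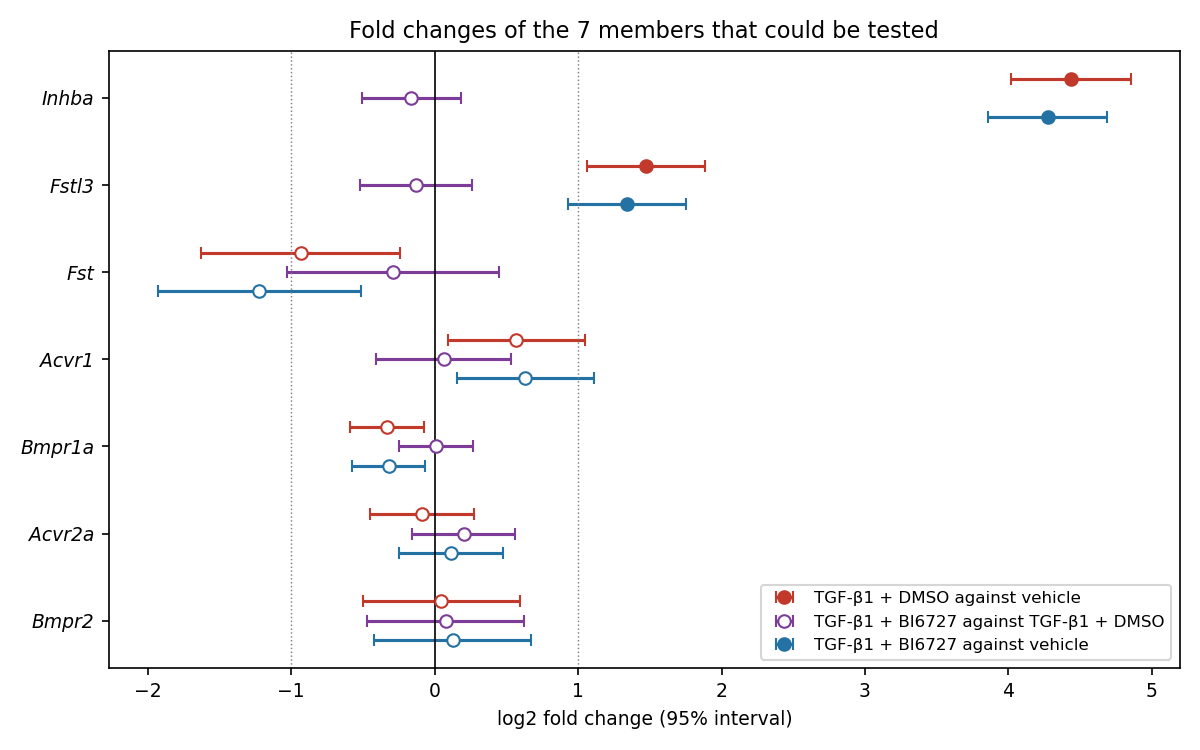
Log2 fold changes of the 7 tested members with 95% intervals, in edgeR's fit of all 6 libraries, with dotted lines at 2-fold. Filled circles passed the threshold and open circles did not; only Inhba and Fstl3 have filled circles, both for the comparisons with vehicle, and all intervals for TGF-β1+BI6727 against TGF-β1+DMSO include 0.

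The rest of the pathway was described with 74 further genes in 5 lists, of which 42 were tested and 20 had no count in any library. TGF-β1+DMSO against vehicle called 15 of the 42 (35.7%, 5 higher and 10 lower), where 5.98% of all tested genes were called. TGF-β1+BI6727 against vehicle called 13 (31.0%, 5 higher and 8 lower), where 6.22% were called. TGF-β1+BI6727 against TGF-β1+DMSO called none by edgeR or by DESeq2, and 5 had an unadjusted p below 0.05, where 7.13% of all tested genes did.

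Of 21 other ligand genes only Inha, Gdf5, Gdf9 and Gdf11 were tested, and none was called. Gdf11, a ligand of the activin type II receptors, had the highest level of them. It had 59.6 and 62.2 normalized CPM in vehicle, 84.8 and 67.8 in TGF-β1+DMSO, and 99.8 and 96.0 in TGF-β1+BI6727. The 3 groups did not overlap. Of all tested genes, 60.5% did not overlap between TGF-β1+DMSO and vehicle, 35.1% between the TGF-β1 groups, and 71.6% between TGF-β1+BI6727 and vehicle. Its log2 fold change was 0.32 for TGF-β1+DMSO against vehicle (edgeR adjusted p = 0.110) and 0.68 for TGF-β1+BI6727 against vehicle, where the edgeR adjusted p of 0.00678 passed and the fold did not. The first was 0.15 without TGF-β1+DMSO replicate 1 and 0.49 without its replicate 2. Between the TGF-β1 groups the log2 fold change of Gdf11 was 0.36 (95% interval 0.067 to 0.65, edgeR adjusted p = 0.645), which was not called. Inha, whose product pairs with the beta A subunit to form inhibin A, had 6.67 and 4.77 normalized CPM in vehicle, 6.87 and 7.57 in TGF-β1+DMSO, and 3.58 and 6.01 in TGF-β1+BI6727. The rise of Inhba had no called counterpart in Inha.

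Of 18 other antagonists and extracellular modulators, 10 were tested, 2 rose and 1 fell with TGF-β1+DMSO against vehicle (median log2 fold change -0.39). Both that rose encode astacin proteases, which are known to cleave the BMP antagonist chordin. Tll1 had 2 and 4 counts in vehicle and 359 and 268 in TGF-β1+DMSO, a count ratio of 104 (95% counting interval 47.7 to 286). Bmp1, which is also the procollagen C-proteinase, went from 87.0 ± 6.24 to 209 ± 36.2 normalized CPM (SD, n = 2; log2 fold change 1.26, edgeR adjusted p = 0.000418). Bmper, a secreted BMP-binding protein, fell from 62.9 ± 8.36 to 22.3 ± 3.62 (log2 fold change -1.50, edgeR adjusted p = 0.000394).

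Of 14 other receptors and co-receptors, 10 were tested, 1 rose and 2 fell (median log2 fold change -0.32). Tgfbr3, the co-receptor betaglycan that binds TGF-β and inhibin, had 134 and 109 normalized CPM in vehicle and 21.5 and 16.5 in TGF-β1+DMSO, a fall of 2.68 on the log2 scale (log2 fold change -2.68, edgeR adjusted p = 2.9e-05). Rgma, a co-receptor for BMPs, fell from 48.9 ± 1.80 to 20.0 ± 2.92 (SD, n = 2; log2 fold change -1.29, edgeR adjusted p = 0.00064). Acvrl1, the type I receptor ALK1, was low in vehicle at 0.885 ± 0.179 and rose to 3.15 ± 0.738 (SD, n = 2; log2 fold change 1.83, edgeR adjusted p = 0.00557), but lost its call with only the 2 groups in the fit (0.0213). The other 7 had no call, and neither had the 4 receptor members.

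All 10 SMAD and ubiquitin ligase genes were tested, of which 1 rose and 2 fell (median log2 fold change -0.066). Smad7, which encodes an inhibitory SMAD, rose from 39.3 ± 0.590 to 92.6 ± 14.4 normalized CPM (SD, n = 2; log2 fold change 1.24, edgeR adjusted p = 0.000365). Smad3, which carries activin and TGF-β signals, fell from 69.7 ± 1.93 to 28.7 ± 4.75 (SD, n = 2; log2 fold change -1.28, edgeR adjusted p = 0.000451). Smad9, which carries BMP signals, fell from 12.1 ± 0.999 to 4.23 ± 1.13 (SD, n = 2; log2 fold change -1.51, edgeR adjusted p = 0.00356).

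Of 11 genes known as BMP targets, 8 were tested, 1 rose and 5 fell (median log2 fold change -1.16). Atoh8, a basic helix-loop-helix factor, had 44.4 and 42.6 normalized CPM in vehicle, 4.34 and 4.80 in TGF-β1+DMSO, and 4.96 and 3.84 in TGF-β1+BI6727. Its log2 fold change of TGF-β1+DMSO against vehicle was -3.25 (edgeR adjusted p = 1.6e-05). The genes of the 4 ID proteins, inhibitors of basic helix-loop-helix factors, all fell. Id2 had 98.3 and 94.6 normalized CPM in vehicle and 25.3 and 24.6 in TGF-β1+DMSO, with a log2 fold change of -1.95 (edgeR adjusted p = 0.000143). Id1, Id3 and Id4 had log2 fold changes of -1.07, -1.34 and -1.24. Their adjusted p by edgeR's quasi-likelihood test were 0.00126, 0.000756 and 0.00813, and the call of Id4 was lost with only the 2 groups in the fit (0.0124). Sp7, the osteoblast factor osterix, rose from 2 and 0 counts in vehicle to 43 and 28 in TGF-β1+DMSO, a count ratio of 35.5 (95% counting interval 9.47 to 299), and lost its call with only the 2 groups in the fit (edgeR adjusted p = 0.0103).

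With a vehicle library left out, the pathway genes called above kept the direction of their log2 fold change in TGF-β1+DMSO against vehicle. In these smaller fits many did not pass the threshold. Tll1, with 2 and 4 counts in vehicle, had a log2 fold change of 6.33 without vehicle replicate 1 and 7.11 without replicate 2. Without vehicle replicate 1 and without replicate 2 in turn, the log2 fold change was 1.34 and 1.19 for Bmp1, -1.26 and -1.33 for Rgma, -1.31 and -1.25 for Smad3, and 1.22 and 1.25 for Smad7. It was -1.43 and -1.60 for Smad9, 2.04 and 1.63 for Acvrl1, -1.06 and -1.09 for Id1, -1.23 and -1.44 for Id3, and -1.24 and -1.26 for Id4. These 9 genes and Sp7, with 2 and 0 counts in the vehicle libraries and so no stable fitted value, lost their call in both fits, with edgeR adjusted p from 0.0106 to 0.0719. Bmper lost its call without replicate 1, at -1.36 (edgeR adjusted p = 0.0122). Id1 also fell under the fold threshold without TGF-β1+DMSO replicate 1, at -0.93. Acvrl1 and Id4 also lost their calls without TGF-β1+BI6727 replicate 1 or 2, which left their values at 1.83 for Acvrl1 and at -1.24 and -1.25 for Id4. Tgfbr3, Atoh8, Id2 and Tll1 stayed called without any 1 library.

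**Figure D5:**
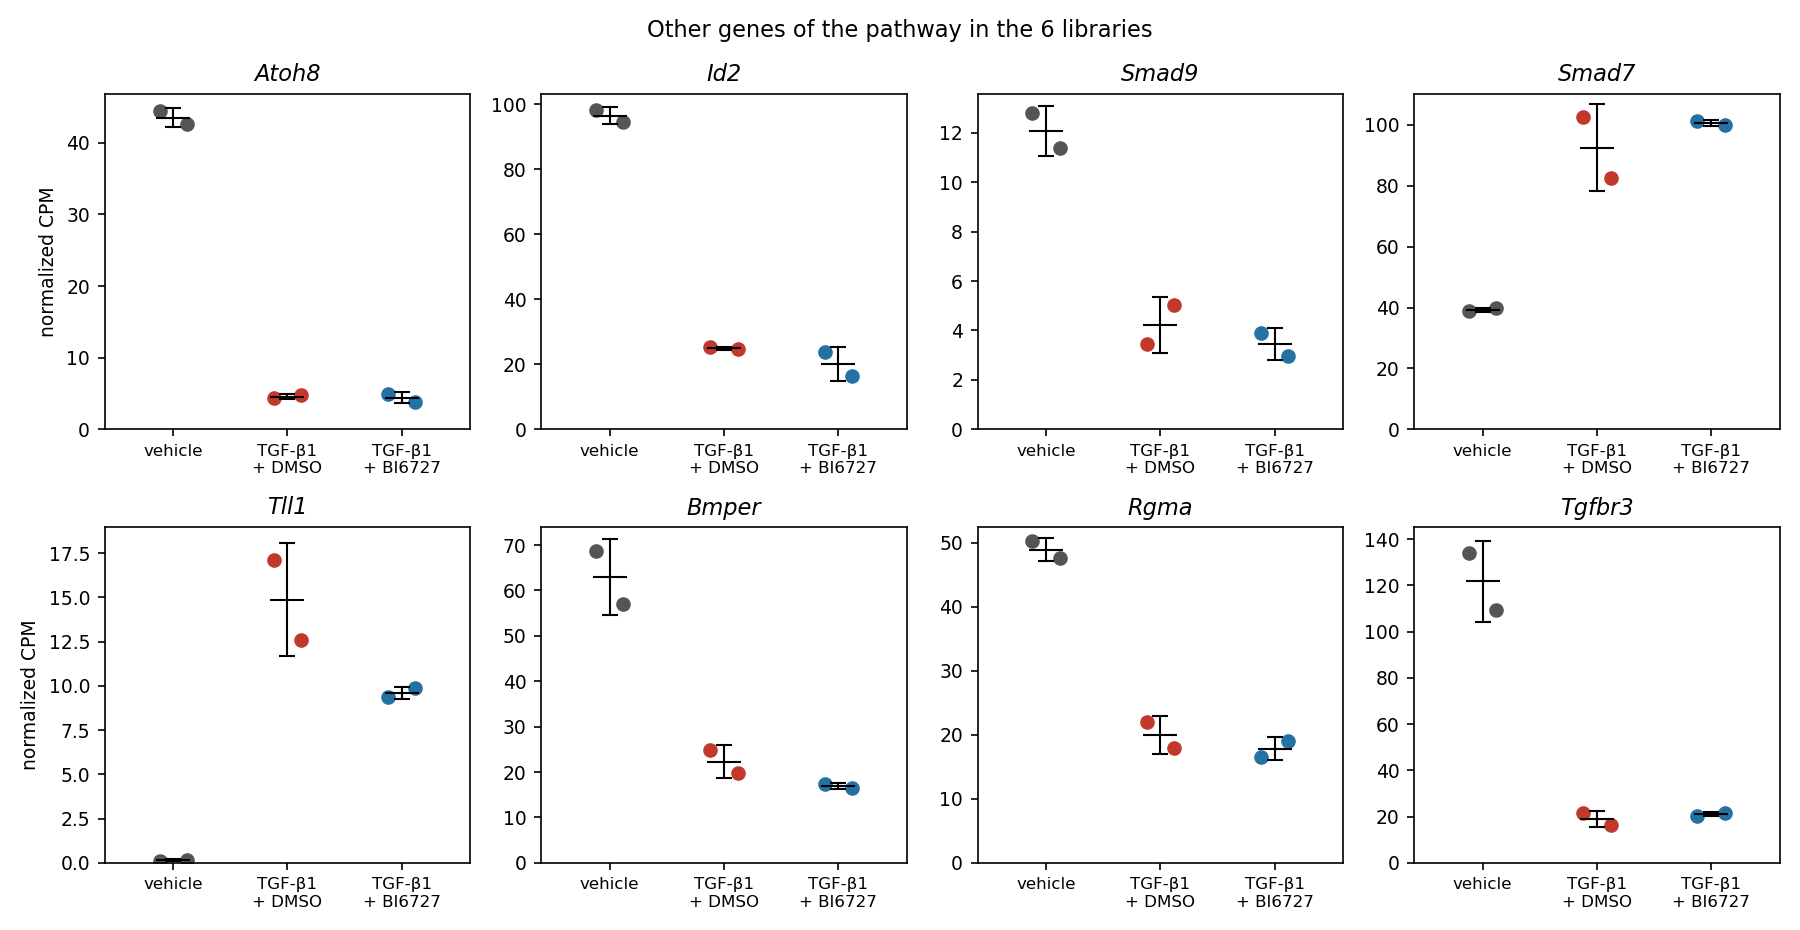
Normalized CPM of 8 other genes of the pathway, with 1 panel per gene and an axis from 0. Points are the 2 libraries of each group, the long line is their mean and the bar 1 SD; Atoh8, Id2, Smad9, Bmper, Rgma and Tgfbr3 stood lower and Smad7 and Tll1 higher in all 4 TGF-β1 libraries than in vehicle.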

How the data were processed

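RNA was sequenced after removal of rRNA, and per the study's methods the authors mapped the reads to mm10 with Subjunc (Subread 1.6.4) and counted them on Gencode genes with featureCounts. The deposited values are raw counts per gene. How strand and reads of several genes were handled is not given in the sources used here. Groups came from the sample labels.

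Library totals were 18362378 to 24452153 counts. Genes were filtered with filterByExpr (14604 genes). The study's filter of at least 10 CPM in more than 3 samples was an alternative, since a gene above 10 CPM in 1 group of 2 libraries cannot pass it. All 6 libraries were fitted together in R 4.3.3 with edgeR 4.0.16 (TMM scaling, quasi-likelihood test, 3 residual degrees of freedom, no covariate), and genes were called at a Benjamini-Hochberg adjusted p below 0.01 and a fold change above 2. DESeq2 1.42.0 was an alternative. RPKM used the gene lengths of the count table.

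The members, lists and tests were chosen with earlier results of these data known. Pathway genes were named by a fixed rule, up to 3 called genes per list by size of change, or the most abundant where none was called. Id1, Id3, Id4, Inha, Prss57 and Orc4 were named after their values were seen. Promoter windows are RefSeq, GRCm38.p6. Intervals from counts cover counting error only.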

Additional observations from a re-analysis of the deposited data

How the results depend on the processing

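Inhba was called higher in both TGF-β1 groups against vehicle under every alternative run. Members called stayed at 2 against vehicle for TGF-β1+DMSO, except 1 without vehicle replicate 1, and ranged from 1 to 3 for TGF-β1+BI6727 over the alternatives. Genes called for TGF-β1+DMSO against vehicle (874) were 485 with the 10 CPM filter, 3052 at an adjusted p below 0.05 with no fold, and 293 to 1463 with 1 library left out. For TGF-β1+BI6727 against vehicle (908) they were 505, 3216 and 339 to 1218. For TGF-β1+BI6727 against TGF-β1+DMSO (0) they were 15 with DESeq2, 47 with no filter, 11 with length trends removed, 2 at an adjusted p below 0.05 with no fold, and 0 to 95 with 1 library left out; no member was called in any of these settings, by either tool.

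Signs turned for values near 0. For TGF-β1+DMSO against vehicle, leaving out 1 library gave a range of -0.20 to 0.024 for Acvr2a and of -0.46 to 0.43 for Bmpr2, which was -0.00075 with the replicate block. For TGF-β1+BI6727 against TGF-β1+DMSO, leaving out 1 library gave -0.34 to 0.022 for Inhba, -0.21 to 0.38 for Acvr1, -0.11 to 0.12 for Bmpr1a (-0.0055 without TGF-β1+BI6727 replicate 1) and -0.31 to 0.58 for Bmpr2. All of these bounds came from leaving out a TGF-β1+DMSO library, except those of Acvr2a, which came from vehicle. Bmpr1a was -0.0029 with DESeq2 and with its size factors, and -0.032 with length trends removed, where Bmpr2 was -0.051. The cause was not tested.

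Same-numbered replicates did not deviate together (r of -0.037, -0.059 and -0.0079 over the tested genes, and -0.11, -0.26 and 0.047 over those past the 10 CPM filter), so the numbers were not taken as pairs. With the replicate number as a block, 810, 0 and 804 genes were called in the 3 comparisons; the block called the same members, and ended the calls of Acvrl1 (adjusted p = 0.0117) and Id4 (0.0126) by edgeR. A crossed block, chosen after seeing the data, called 902, 0 and 918. Of 551 values of named genes under alternatives, 500 kept direction and side of the threshold. This count includes genes called neither in the main fit nor in the alternative, so it does not measure how stable the calls were. Precision is limited by 2 libraries a group and 3 residual degrees of freedom. The 95% intervals of the members use edgeR's moderated spread, which borrows from the other genes, and not these 3 degrees of freedom alone.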
